A study of Rattus norvegicus with 8 samples.

Results

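Genes of the proteasome were described in whole kidneys of the HSRA rat, a model of unilateral renal agenesis derived from a heterogeneous stock. Both groups belong to this model and were taken at 4 weeks of age. HSRA-S animals had a congenital solitary kidney, and HSRA-C animals had a kidney pair and served as control. Each group held 4 kidneys, hybridised singly to Affymetrix Rat Gene 1.1 ST arrays. The sources used here give neither sex nor litter, and p-values measure only the spread between these samples. The genes were chosen by symbol, with earlier results of these data known. Symbols beginning with Psma, Psmb, Psmc, Psmd, Psme or Psmg were taken, if measured by a probe set paired with that symbol alone. The inducible subunits Psmb8, Psmb9 and Psmb10 were left out. This gave 47 of 17245 named genes, of which 45 passed a filter that removed the dimmest 20% of genes, below a mean log2 intensity of 3.63. The 2 that did not pass were Psma8, a subunit of the testis, at log2 2.56 to 2.96, and the pseudogene Psma6-ps1 at 3.02 to 3.39. Psma3 and Psmc3 share their probe sets with another symbol and were left out of the tests.

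The proteasome is the protease that breaks down proteins marked with ubiquitin. Its core particle is a barrel of stacked rings, in which alpha subunits form the gate and beta subunits hold the active sites inside. A regulatory particle docks on the alpha ring. It recognises the ubiquitin chain, removes it, unfolds the substrate with a ring of ATPases and threads it into the core. Other activators can bind the core in its place, and dedicated chaperones assemble the rings and then leave. In kidney tubules the proteasome works beside the lysosome, which takes the filtered protein that the cells reabsorb. The transcription factor Nfe2l1 raises proteasome genes together when proteasome activity falls, through antioxidant response elements in their promoters.

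Promoters are shown for 4 genes: the catalytic subunits Psmb5 and Psmb6, whose windows hold the core letters of that element, and Psmc6 and Psmd7, whose groups of samples did not overlap. The last pair was picked after its values were seen. Each window runs from 250 bases before to 50 bases after the RefSeq start of the gene in GRCr8 and is written 5′ to 3′ on the strand of the gene. Capitals mark TGACNNNGC in the Psmb windows and CCGGAAG, the letters bound by ETS factors, in the others. The Psmb5 window is chr15:32047330-32047629 (minus strand), that of Psmb6 chr10:55737638-55737937 (plus), that of Psmc6 chr15:21022064-21022363 (plus) and that of Psmd7 chr19:52411267-52411566 (minus).
Psmb5: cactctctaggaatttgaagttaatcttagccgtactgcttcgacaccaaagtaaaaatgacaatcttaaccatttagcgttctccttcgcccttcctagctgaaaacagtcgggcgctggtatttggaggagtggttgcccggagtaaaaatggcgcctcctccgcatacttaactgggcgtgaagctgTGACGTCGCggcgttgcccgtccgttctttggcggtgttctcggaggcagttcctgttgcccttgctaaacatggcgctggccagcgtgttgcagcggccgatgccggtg
Psmb6: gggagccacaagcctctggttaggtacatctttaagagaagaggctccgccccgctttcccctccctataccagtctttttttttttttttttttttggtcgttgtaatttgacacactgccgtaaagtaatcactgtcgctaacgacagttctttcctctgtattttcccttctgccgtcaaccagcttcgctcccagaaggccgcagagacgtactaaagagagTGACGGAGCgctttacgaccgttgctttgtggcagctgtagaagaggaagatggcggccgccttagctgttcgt
Psmc6: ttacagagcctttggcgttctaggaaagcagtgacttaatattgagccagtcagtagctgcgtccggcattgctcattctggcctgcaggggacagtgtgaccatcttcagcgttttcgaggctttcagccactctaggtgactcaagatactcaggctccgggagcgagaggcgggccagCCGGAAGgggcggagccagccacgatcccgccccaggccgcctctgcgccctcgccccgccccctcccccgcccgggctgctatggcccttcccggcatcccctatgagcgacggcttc
Psmd7: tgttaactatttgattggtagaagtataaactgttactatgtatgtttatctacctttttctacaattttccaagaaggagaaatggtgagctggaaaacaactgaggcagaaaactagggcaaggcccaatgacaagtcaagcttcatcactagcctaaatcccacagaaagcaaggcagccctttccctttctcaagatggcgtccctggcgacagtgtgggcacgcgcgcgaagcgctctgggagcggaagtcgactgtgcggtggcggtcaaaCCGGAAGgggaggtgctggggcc

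Of the 47 genes, 38 had a promoter window in the RefSeq table; Psma7, Psmb11, Psmd6, Psmd12, Psmd14, Psmb3l2, Psmb3l3, Psma6-ps1 and Psme1-ps1 are named only. Searched on both strands, TGACNNNGC was found in 7 of the 38 windows (18.4%), against 12.7% of 19005 windows of protein-coding genes. Those 7 were Psmb2, Psmb5, Psmb6, Psmd1, Psmd3, Psmd9 and Psme4, with 3 of 13 core and 2 of 13 regulatory particle genes. CCGGAAG was found in 16 of 38 (42.1%), against 11.2% of all windows, in 4 of 13 core and 7 of 13 regulatory particle genes. Those core genes include Psma8, which did not pass the filter. CCAAT, the letters bound by NF-Y, was found in 17 of 38 (44.7%) against 38.4%, in 8 of 13 core and 4 of 13 regulatory particle genes. The motifs overlapped each other in 1 place, where TGACNNNGC and CCAAT shared 1 base in Psmb2. These matches describe the letters of the windows, and binding was not measured.

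The arrays held kidney markers at high levels in both groups. Umod, the thick ascending limb protein of urine, lay between log2 11.55 and 11.70, and the proximal tubule receptor Lrp2 between 10.99 and 11.34. HSRA-C replicates 3 and 4 stood apart in their tubule markers. The mean log2 of 19 proximal tubule genes minus that of 19 collecting duct genes was 1.35 and 1.29 there. HSRA-S replicate 4 had the highest value, 2.68, and the other 5 samples ran from 1.83 to 2.0. Where leaving both out turned the sign of a proteasome gene's difference, that value is given too, as it is for a number of other genes. Proximal tubule markers were higher in HSRA-S in 16 of 19 (mean difference 0.26) and collecting duct markers lower in 16 of 19 (mean -0.24). The difference between these lists in each sample was fitted as a covariate in an alternative whose values are given below. Beyond that, their part in the results was not tested. In whole kidney, fewer cells of a type and less RNA per cell cannot be told apart.

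Proteasome genes differed little between solitary and control kidneys, and none passed the test. Of the 45 tested, 32 were higher in HSRA-S (71.1%), where 55.5% of all 13796 genes tested were. The median log2 difference, HSRA-S minus HSRA-C, was 0.046 over these genes and 0.015 over all genes. The difference was under 0.2 in size, or 1.15-fold, in 44 of 45 genes (97.8%) and in 86.4% of all genes. The 95% interval of the limma fit stayed inside 0.4 on either side of 0, or 1.32-fold, for 45 of 45 proteasome genes and for 81.3% of all genes. These genes also varied less among replicates, with a median within-group SD of 0.081 against 0.118 for all genes.

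By limma 0 of the 45 passed at an adjusted p under 0.05, as did 0% of all genes, and the smallest adjusted p was 0.331. Without adjustment 4 genes passed, of a background of 12.1%: 4 were higher (8.89%; background 7.36%) and 0 lower (background 4.69%). These 4 were Psmc6, Psmd7, Psmd12 and Psme3ip1. In the same 4 genes every HSRA-S sample lay above every HSRA-C sample (8.89%; background 4.12%), and in 0 genes the reverse held (background 2.17%). The share of higher genes without adjustment lies near its background. Leaving out HSRA-S replicate 1, 2 or 3, or HSRA-C replicate 3 or 4, changed the count from 4 to 2 genes each. Without HSRA-S replicate 1 these were 1 higher and 1 lower, and in the other cases both were higher; leaving out both of those HSRA-C samples gave 1, Psme3ip1.

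**Figure D1:**
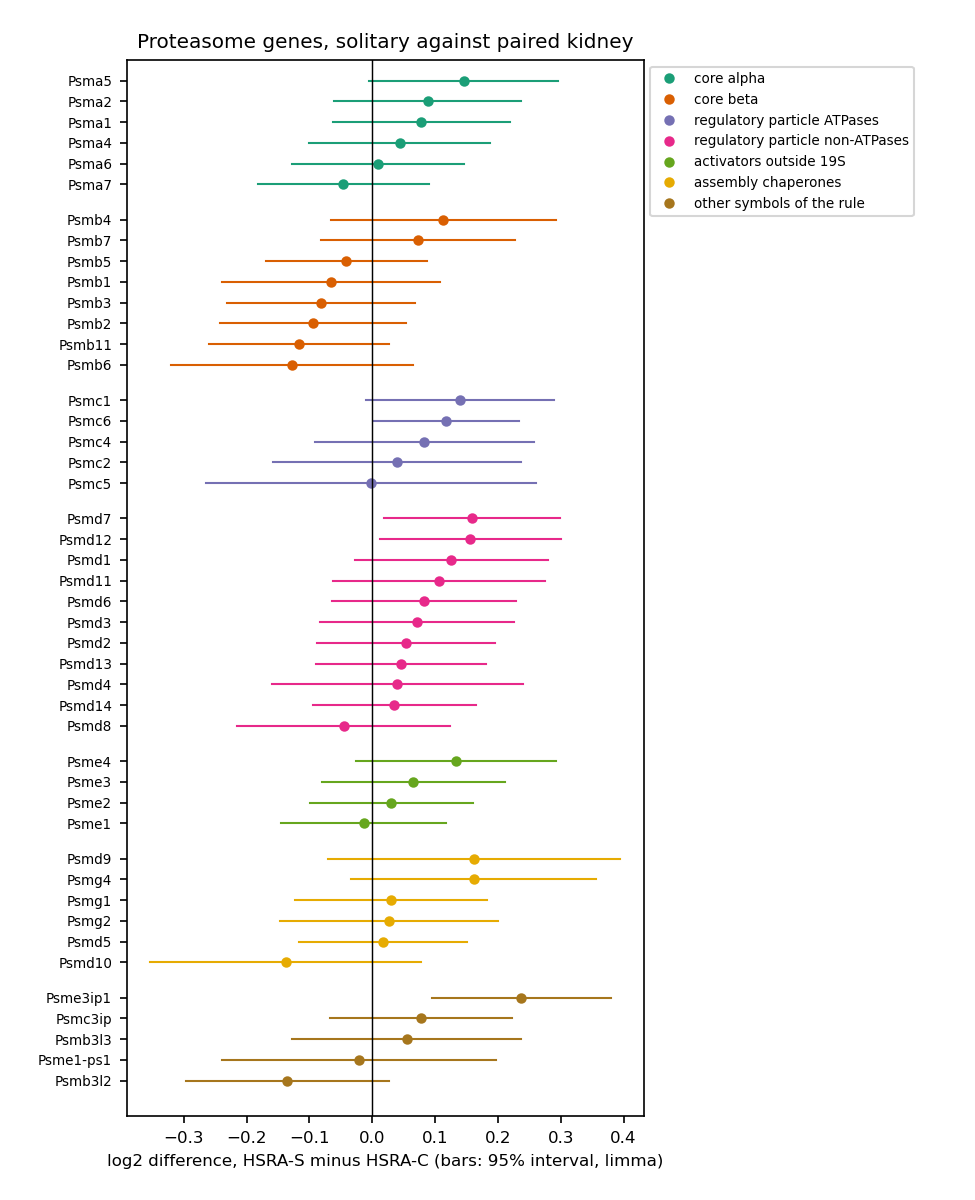
Log2 difference, HSRA-S minus HSRA-C, of the 45 tested genes, with points for the limma estimate and bars for its 95% interval, grouped and coloured by role. Differences run from -0.14 to 0.24; regulatory particle genes lie mostly right of 0 and core beta genes mostly left, and all bars but 4 cross 0.

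The differences were unevenly spread over the parts of the complex. Regulatory particle genes were higher in HSRA-S in 14 of 16, with a median difference of 0.077. Core particle genes were split, 7 higher and 7 lower, with a median of -0.016, which was 0.0091 without the dim gene Psmb11. Within the core, 5 of 6 alpha genes were higher (median 0.061) and 6 of 8 beta genes lower (median -0.074). Over all genes tested the median was 0.015 and the share of higher genes 55.5%. None of the genes in these parts passed the adjusted test, and no p is given for the counts.

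For each array, every gene's deviation from its own mean over the 8 arrays was averaged over a part of the complex. For the regulatory particle this mean was 0.10, 0.038, 0.0019 and 0.0088 in HSRA-S replicates 1 to 4. It was 0.013, 0.019, -0.079 and -0.10 in HSRA-C replicates 1 to 4. HSRA-S replicate 1 was high and HSRA-C replicates 3 and 4 were low, while the other 5 samples lay close together and overlapped between groups. The mean over all genes tested was also highest in HSRA-S replicate 1, at log2 6.35 against 6.28 to 6.31 in the other samples. In HSRA-C replicate 3, 16 of 16 regulatory particle genes were below their own mean, and in HSRA-C replicate 4, 15 of 16 were. Without these 2 samples, 11 of 16 regulatory particle genes were higher in HSRA-S and their median difference was 0.018. Without HSRA-S replicate 1 the median was 0.041. With the tubule marker difference as a covariate it was 0.072, and 13 of 16 were higher.

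The core did not always follow the regulatory particle. Its mean deviation ran from -0.060 to 0.038 in HSRA-S and from -0.046 to 0.057 in HSRA-C, with group means of -0.00080 (SD 0.044, n = 4) and 0.00080 (SD 0.047, n = 4). HSRA-C replicate 3, where all 16 regulatory particle genes were low, had the highest core mean of the 8 arrays, and 0 of its 8 beta genes were below their own mean. HSRA-C replicate 4 had the lowest regulatory particle mean and also the lowest core mean of the controls, -0.046. There 9 of 14 core genes and 5 of 8 beta genes were below their own mean. Core minus regulatory particle was -0.11, -0.014, -0.062 and 0.029 in HSRA-S and 0.0089, -0.048, 0.14 and 0.058 in HSRA-C. The groups overlapped, and their means of -0.039 ± 0.059 and 0.039 ± 0.078 (SD, n = 4 each) differed by -0.077. This difference was -0.019 without HSRA-C replicates 3 and 4 and, with 1 sample left out, ran from -0.11 (HSRA-C replicate 2) to -0.045 (HSRA-C replicate 3). Counting Adrm1 and Sem1, regulatory particle subunits with symbols outside the rule, gave -0.085, and leaving out Psmb11 gave -0.068.

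**Figure D2:**
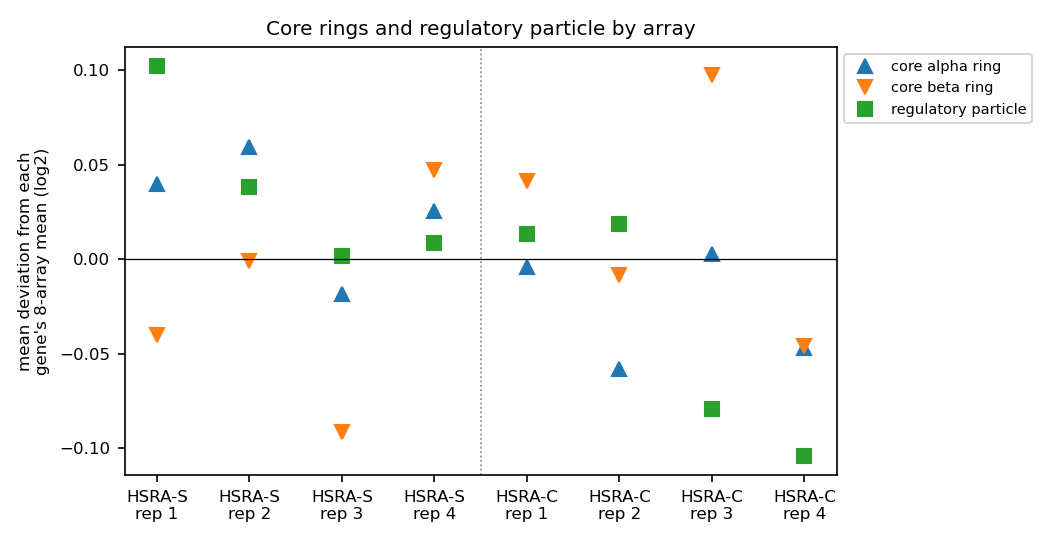
Mean log2 deviation of core alpha, core beta and regulatory particle genes from each gene's own 8-array mean (y axis) in each of the 8 arrays (x axis). The regulatory particle is lowest in HSRA-C replicates 3 and 4, at -0.079 and -0.10, and the beta ring is highest in HSRA-C replicate 3, at 0.098.

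The alpha and beta rings, which contribute the same number of subunits to the barrel, also differed in side. The mean deviation of alpha genes minus that of beta genes was 0.080, 0.060, 0.073 and -0.022 in HSRA-S. It was -0.046, -0.049, -0.095 and -0.0013 in HSRA-C. HSRA-S replicate 4 lay among the control samples and the other 3 lay above them. The difference between groups was 0.096, and 0.095 without HSRA-C replicates 3 and 4, where 5 of 6 alpha genes were still higher and 6 of 8 beta genes lower. Over all samples but without the dim gene Psmb11 it was 0.085, with 5 of 7 beta genes lower. This contrast was chosen after its values were seen and was not tested.

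How far the genes of one particle varied together within groups was also described. The mean pairwise correlation of deviations from the group mean over the 8 arrays was 0.31 among the 16 regulatory particle genes and 0.22 among the 14 core genes. It was 0.017 between core and regulatory particle genes and 0.026 over all pairs of the 13796 genes. Beta genes stood at 0.33 and alpha genes at 0.058. All these values come from the same 8 arrays and are given as a description.

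**Figure D3:**
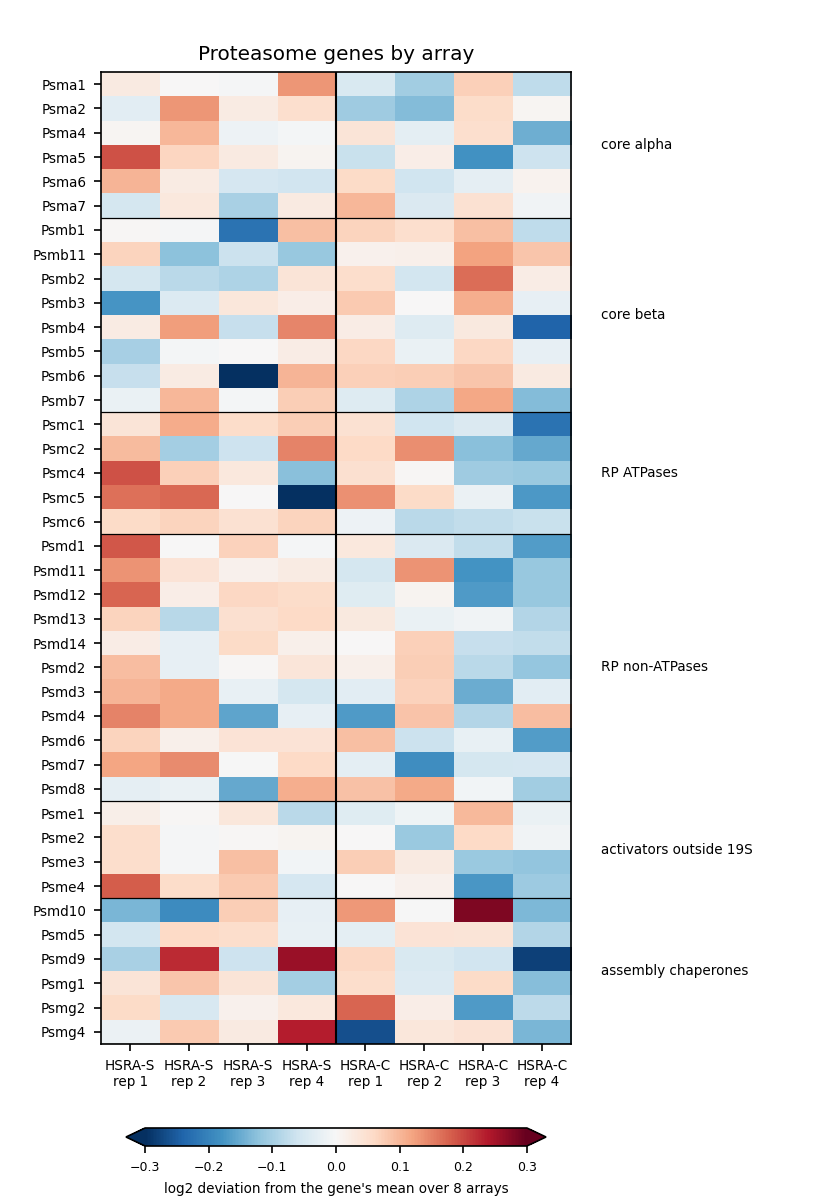
Log2 deviation of each of 40 proteasome genes (rows, by role; RP is the regulatory particle) from its own 8-array mean in each array (columns). The regulatory particle rows are blue (low) in HSRA-C replicate 3 and, but for Psmd4, in HSRA-C replicate 4, whereas the beta rows of HSRA-C replicate 3 are red (high).

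The catalytic subunits of the core showed no common direction. Psmb5, which carries the chymotrypsin-like site, had log2 values of 9.71, 9.80, 9.81 and 9.83 in HSRA-S and 9.87, 9.79, 9.87 and 9.79 in HSRA-C. The groups overlapped, and the difference was -0.041 (SE 0.058, adjusted p = 0.813). Psmb6, with the caspase-like site, stood at 8.04, 8.13, 7.80 and 8.21 in HSRA-S and 8.18, 8.18, 8.19 and 8.14 in HSRA-C. HSRA-S replicate 3 was the low sample, and the difference was -0.13 (SE 0.086, adjusted p = 0.577). It was -0.045 without that sample and -0.23 with the tubule covariate. A second, dimmer probe set of Psmb6 differed by -0.22, also with overlap. Psmb7, with the trypsin-like site, was at 9.0, 9.12, 9.01 and 9.09 in HSRA-S and 8.98, 8.93, 9.14 and 8.89 in HSRA-C. Here HSRA-C replicate 3 was the highest of all 8 samples, and the difference was 0.073 (SE 0.069, adjusted p = 0.700).

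The other beta genes were Psmb1, Psmb2, Psmb3, Psmb4 and Psmb11. Psmb4 was higher by 0.11, and Psmb1, Psmb2 and Psmb3 had differences of -0.066, -0.094 and -0.082. Without HSRA-C replicates 3 and 4, Psmb4 and Psmb2 were at 0.065 and -0.046. Psmb11, the catalytic subunit of the thymus, was dim, at 4.01, 3.82, 3.87 and 3.83 in HSRA-S and 3.95, 3.96, 4.06 and 4.02 in HSRA-C, near the filter at 3.63. The groups overlapped in HSRA-S replicate 1, and the difference was -0.12. The adjusted p of the 8 beta genes ran from 0.486 to 0.813. The annotation also holds Psmb3l2 and Psmb3l3, named as copies of Psmb3, and whether their probes bind each other's transcripts was not tested.

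Of the 6 alpha genes tested, Psma5 had the widest difference. Outside the tests, the probe sets shared by Psma3 and Psma3l differed by 0.24 and 0.15. The groups did not overlap in the brighter of them, at 0.24, and overlapped in the other. The log2 values of Psma5 were 6.30, 6.17, 6.14 and 6.12 in HSRA-S and 6.04, 6.13, 5.93 and 6.05 in HSRA-C. The groups overlapped in HSRA-S replicate 4 and HSRA-C replicate 2, and the difference was 0.15 (SE 0.068, adjusted p = 0.425), or 0.096 without HSRA-C replicates 3 and 4. Psma2 was at 7.27, 7.43, 7.32 and 7.35 against 7.19, 7.17, 7.35 and 7.31, a difference of 0.088 with overlap, and of 0.16 without HSRA-C replicates 3 and 4. Psma7 was the one alpha gene on the lower side, at 7.31, 7.40, 7.27 and 7.39 against 7.47, 7.33, 7.41 and 7.36, a difference of -0.046. Psma1, Psma4 and Psma6 lay between 0.0091 and 0.078. Together the 6 alpha genes had adjusted p-values from 0.425 to 0.966.

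Among the ATPases of the regulatory particle, Psmc6 had separate groups. Its log2 values were 7.70, 7.71, 7.69 and 7.71 in HSRA-S and 7.63, 7.56, 7.57 and 7.58 in HSRA-C. The HSRA-S samples lay close together, with an SD of 0.0096, and the lowest of them was above the highest control. The difference was 0.12, a 1.09-fold higher level (SE 0.052, 95% interval 0.0026 to 0.23, adjusted p = 0.411). Without HSRA-C replicates 3 and 4 it was 0.11. Psmc1, whose tail opens the gate of the core, was at 7.85, 7.92, 7.86 and 7.88 in HSRA-S and 7.85, 7.75, 7.76 and 7.59 in HSRA-C. HSRA-C replicate 4 was low and HSRA-C replicate 1 reached the HSRA-S range. The difference of 0.14 (SE 0.067, adjusted p = 0.436) was 0.077 without HSRA-C replicates 3 and 4. Psmc5 was at 6.20, 6.21, 6.04 and 5.69 against 6.17, 6.09, 6.02 and 5.86, a difference of -0.0024 whose sign turned when arrays were centred on their median. Without HSRA-C replicates 3 and 4, Psmc5 was at a difference of -0.098. Psmc2 and Psmc4 differed by 0.039 and 0.083, and by -0.081 and 0.015 without these samples. A second, slightly dimmer probe set of Psmc4 differed by 0.13 over all samples. Its groups were separate by a narrow margin, with the lowest HSRA-S sample at 7.96 and the highest control at 7.95. Outside the tests, the probe set that Psmc3 shares with Slc39a13 differed by 0.0057.

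Psmd7 and Psmd12, both subunits of the lid, had the widest differences of the 16 regulatory particle genes taken by symbol. The lid subunit Sem1, outside the rule, differed by 0.20. Psmd7, the partner of the deubiquitinase Psmd14, was at 7.85, 7.87, 7.73 and 7.79 in HSRA-S and 7.70, 7.55, 7.68 and 7.68 in HSRA-C. HSRA-C replicate 2 was the lowest sample, and the groups did not overlap. The difference was 0.16, or 1.12-fold (SE 0.063, 95% interval 0.019 to 0.30, adjusted p = 0.377), and 0.19 without HSRA-C replicates 3 and 4. Psmd12, a scaffold of the lid, was at 8.04, 7.89, 7.93 and 7.92 in HSRA-S and 7.83, 7.87, 7.70 and 7.75 in HSRA-C. The groups were separate by a narrow margin between HSRA-S replicate 2 and HSRA-C replicate 2. The difference of 0.16, or 1.11-fold (SE 0.064, 95% interval 0.013 to 0.30, adjusted p = 0.388), was 0.092 without HSRA-C replicates 3 and 4.

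**Figure D4:**
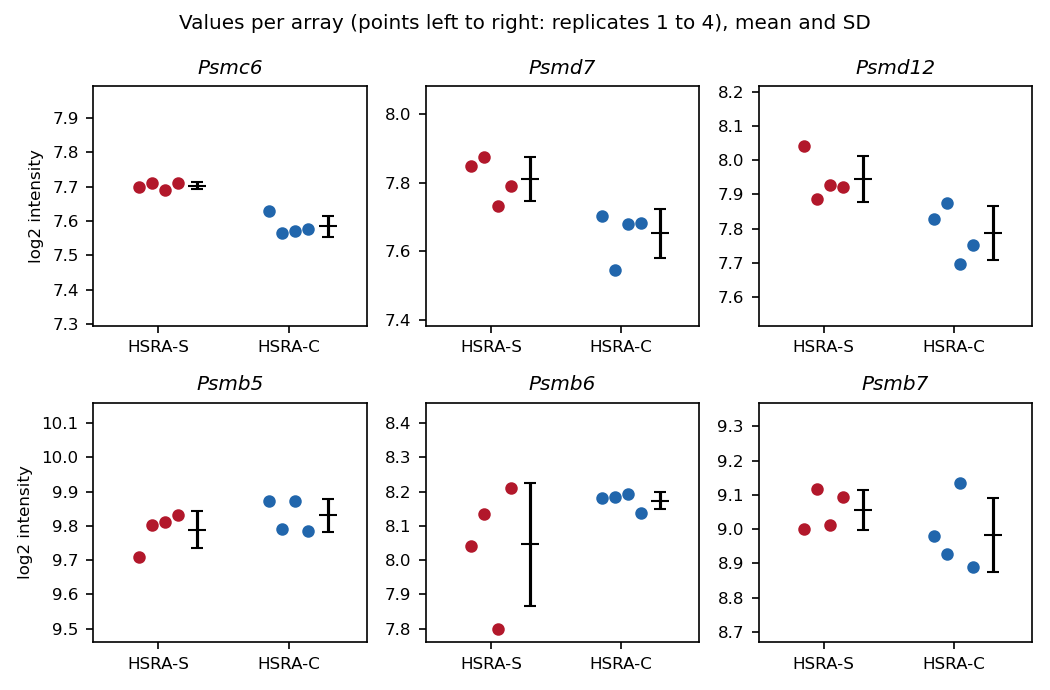
Log2 intensity (y axis) of Psmc6, Psmd7, Psmd12 and the catalytic subunits Psmb5, Psmb6 and Psmb7 in the 4 HSRA-S and 4 HSRA-C arrays, with points for replicates 1 to 4 from left to right and a bar for mean and SD. The groups are separate in the upper row and overlap in the lower row.

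The remaining non-ATPase genes had small differences. Psmd8, the subunit that completes the lid, was at 7.68, 7.69, 7.55 and 7.82 in HSRA-S and 7.79, 7.82, 7.70 and 7.60 in HSRA-C. It was the one non-ATPase gene on the lower side, by -0.045 with overlap, and by -0.12 without HSRA-C replicates 3 and 4. Psmd1 and Psmd2, the large scaffolds of the base, differed by 0.13 and 0.054, and by 0.069 and -0.017 without these samples. The ubiquitin receptor Psmd4 differed by 0.040 and the deubiquitinase Psmd14 by 0.035, which became 0.063 and -0.018. Psmd3, Psmd6, Psmd11 and Psmd13 lay between 0.046 and 0.11, and between 0.012 and 0.029 without these samples. The adjusted p of the 11 non-ATPase genes ran from 0.377 to 0.893.

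Activators that bind the core in place of the regulatory particle were Psme1 to Psme4. Psme4, the large nuclear activator, was at 8.45, 8.32, 8.34 and 8.21 in HSRA-S and 8.26, 8.28, 8.09 and 8.16 in HSRA-C. HSRA-C replicate 3 was the lowest and the groups overlapped, with a difference of 0.13 (SE 0.071, adjusted p = 0.478). It was 0.059 without HSRA-C replicates 3 and 4. Psme1, which forms an interferon-induced ring with Psme2, was at 8.83, 8.81, 8.84 and 8.73 against 8.77, 8.80, 8.90 and 8.79, a difference of -0.013. Its partner Psme2 differed by 0.030 and the nuclear activator Psme3 by 0.066. Without HSRA-C replicates 3 and 4, Psme1, Psme2 and Psme3 differed by 0.017, 0.070 and -0.017.

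Assembly chaperones were more scattered, with a median within-group SD of 0.12. Psmg4, a chaperone of the alpha ring, was at 6.19, 6.28, 6.23 and 6.44 in HSRA-S and 5.94, 6.24, 6.25 and 6.07 in HSRA-C, a difference of 0.16 (SE 0.087, adjusted p = 0.483). Psmd9, which helps to assemble the ATPase ring, was at 6.89, 7.22, 6.93 and 7.25 in HSRA-S and 7.05, 6.95, 6.93 and 6.71 in HSRA-C, a difference of 0.16 (SE 0.10). HSRA-S replicates 2 and 4 were high and HSRA-C replicate 4 low, and the difference was 0.073 without HSRA-C replicates 3 and 4 and -0.0057 with the tubule covariate. Psmd10, another chaperone of the ATPase ring and known as gankyrin, was at 5.69, 5.64, 5.90 and 5.80 in HSRA-S and 5.96, 5.83, 6.11 and 5.69 in HSRA-C. It had the lowest difference of the 45 genes, -0.14 (SE 0.097, adjusted p = 0.590), with overlap. Without HSRA-C replicate 3 it was -0.067, less far from 0 than Psmb6 and Psmb3l2 at -0.12 each. Psmg1, Psmg2 and Psmd5 differed by 0.030, 0.027 and 0.017, and by 0.0096, -0.084 and 0.0019 without HSRA-C replicates 3 and 4.

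The rule also took in 6 symbols outside these roles. One of them, Psme3ip1, which binds the activator Psme3, had the largest difference of the 45 genes. Its log2 values were 7.60, 7.56, 7.70 and 7.63 in HSRA-S and 7.48, 7.33, 7.44 and 7.30 in HSRA-C. Every HSRA-S sample was above every control, by a difference of 0.24 or 1.18-fold (SE 0.064, 95% interval 0.094 to 0.38, adjusted p = 0.331). It was 0.22 without HSRA-C replicates 3 and 4. Psmb3l2 was dim, at 4.75, 4.68, 4.90 and 4.92 against 4.86, 5.01, 4.98 and 4.93, a difference of -0.14. Psmb3l3, the meiotic recombination factor Psmc3ip and the pseudogene Psme1-ps1 differed by 0.055, 0.077 and -0.021.

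Genes that work with the proteasome were described from a list of 32, of which 26 were tested and the others were not analysed here. In HSRA-S 17 were higher and 9 lower, with a median of 0.071. The adjusted limma test called 0 of them. Without adjustment 3 were higher (11.5%; background 7.36%) and 0 lower (background 4.69%). Pomp, the chaperone that matures the core, had the widest difference of the list. It was at 8.37, 8.24, 8.05 and 8.15 in HSRA-S and 8.08, 7.86, 8.05 and 7.70 in HSRA-C. The groups overlapped, and the difference was 0.28, or 1.21-fold (SE 0.10, adjusted p = 0.358). Sem1, the smallest subunit of the lid, was at 7.40, 7.43, 7.30 and 7.33 in HSRA-S and 7.04, 7.15, 7.26 and 7.20 in HSRA-C. Its groups did not overlap, with a difference of 0.20, or 1.15-fold (SE 0.066, adjusted p = 0.338).

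Usp14, a deubiquitinase bound to the regulatory particle, was the third of these genes, at 7.05, 6.87, 6.94 and 6.78 in HSRA-S and 6.76, 6.77, 6.74 and 6.73 in HSRA-C. Its groups did not overlap at a difference of 0.16, nor did those of the proteasome-bound thioredoxin Txnl1 (0.12) and the unfoldase cofactor Nploc4 (0.099). With Sem1 these were 4 of 26 partners (15.4%; background 4.12%). Usp14, Txnl1 and Nploc4 are named after their values were seen. Nfe2l1 itself was at 8.34, 7.92, 7.88 and 7.97 in HSRA-S and 8.02, 8.31, 8.0 and 8.03 in HSRA-C, a difference of -0.063 (SE 0.11, adjusted p = 0.857). One sample of each group was high, HSRA-S replicate 1 and HSRA-C replicate 2. On the lower side, the ubiquitin shuttle Ubqln2 was at 7.51, 7.45, 7.53 and 7.55 against 7.46, 7.62, 7.61 and 7.70, a difference of -0.087. Akirin2, which brings proteasomes into the nucleus, was at 7.70, 7.61, 7.66 and 7.58 against 7.59, 7.70, 7.74 and 7.74, a difference of -0.056.

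The inducible subunits replace the catalytic ones of the core in immune cells and under interferon. All 3 were higher in HSRA-S, as were 55.5% of all genes. Without adjustment 1 of 3 passed (33.3%; background 7.36%), and 0 passed after adjustment by limma. Psmb9 was at 6.83, 6.85, 6.80 and 6.29 in HSRA-S and 6.12, 6.67, 6.52 and 6.23 in HSRA-C. HSRA-S replicate 4 lay with the controls, and the difference was 0.31, or 1.24-fold (SE 0.15, adjusted p = 0.448). Psmb8 was dim, at 4.43, 4.21, 4.36 and 4.26 against 4.24, 4.11, 4.17 and 3.98, a difference of 0.19 with overlap (SE 0.076, adjusted p = 0.379). Psmb10 was at 5.51, 5.76, 5.75 and 5.54 against 5.57, 5.63, 5.59 and 5.47, a difference of 0.075. Leukocyte markers had the same direction between groups. Of 16 markers on the list 13 were tested and all 13 were higher in HSRA-S. Their summed intensity ran from 2597 to 2948 in HSRA-S and from 1999 to 2683 in HSRA-C, and none was at 0. HSRA-C replicate 1 had the lowest Psmb9 of all samples, 6.12, and the highest sum of the controls, 2683. That sum weighs Cd74 most, at log2 10.85 in this sample and 10.41 to 10.60 in the other controls. By mean log2 of the markers, HSRA-C replicates 1 to 4 stood at 6.14, 6.14, 6.05 and 5.83. The part of these markers in the result was not tested.

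**Figure D5:**
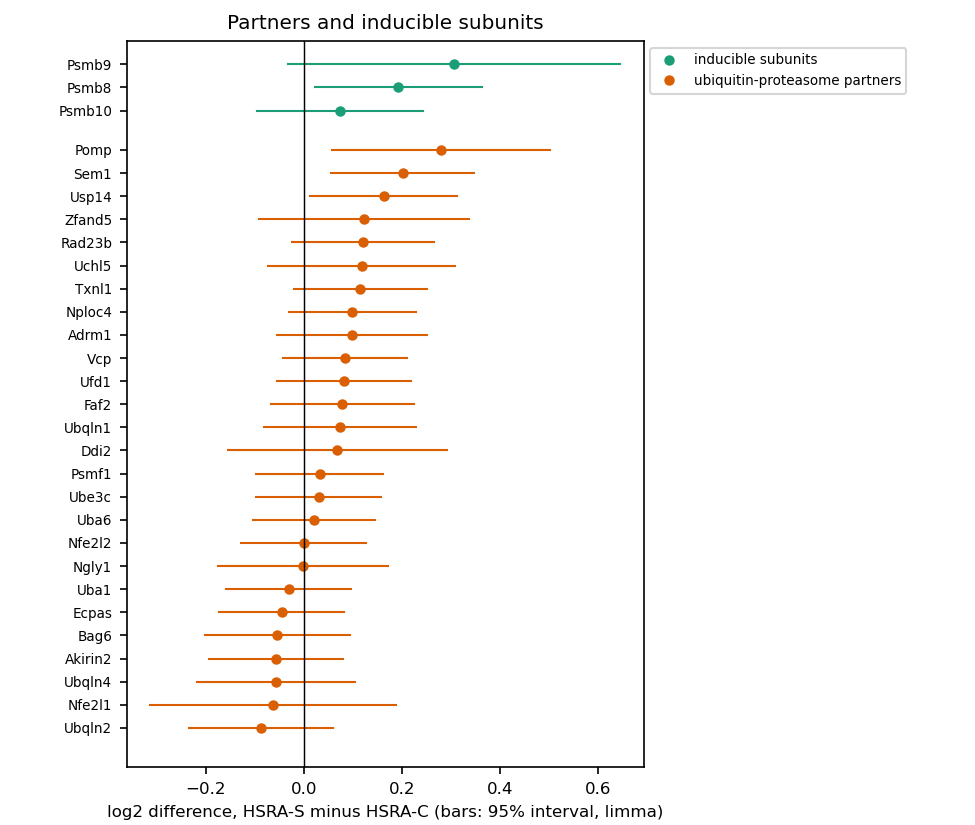
Log2 difference, HSRA-S minus HSRA-C, of the 3 inducible subunits and 26 partner genes, with points for the limma estimate and bars for its 95% interval. Psmb9 at 0.31 and Pomp at 0.28 have the widest differences, and Ubqln2 at -0.087 the lowest.

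Proliferation markers were mostly on the higher side in HSRA-S too. Of the 9 tested, 8 were higher in HSRA-S, with a mean log2 from 5.83 to 6.39 in HSRA-S and from 5.53 to 6.22 in HSRA-C. HSRA-C replicate 2, the control with the highest value of this list, had a regulatory particle deviation of 0.019, and HSRA-C replicates 1, 3 and 4, with 5.53, 5.66 and 5.58, had 0.013, -0.079 and -0.10. The part of these markers in the differences of proteasome genes was not tested.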

How the data were processed

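Whole-kidney RNA of 8 rats was measured on 8 arrays. The deposited values are linear intensities from 2.12 to 9259, made by the authors with RMA per the submitters' processing notes; the sources used here do not name the RMA software. The log2 was taken before any test. Of 29214 probe sets, 18644 had 1 symbol in the platform annotation, 962 several and 9608 none; the brightest was used per gene (3 proteasome genes had several). All named genes past the filter were fitted with limma 3.58.1 in R 4.3.3 (lmFit and eBayes, no trend, group as the only term) and p-values adjusted by Benjamini-Hochberg over 13796 genes, which was tested on simulated data. SEs and SDs are in log2 units, and 8 arrays limit the precision.

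Members, lists, alternatives and the naming rule were chosen with earlier results of these data known. The rule names the catalytic subunits, the 2 genes of smallest p per role (1 for roles under 5 genes), genes without overlap and the lowest difference per role, 2 partners per direction, the inducible subunits and Nfe2l1. Alternatives covered the filter, probe sets, centring, trend, array weights, replicate block, a tubule covariate and left-out samples. The sex-linked marker list had 0 of 6 genes with a value. Thick ascending limb and podocyte lists had mean differences of -0.051 and -0.11, smaller than those of the proximal tubule and collecting duct lists.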

Additional observations from a re-analysis of the deposited data

Results flagged for a closer look

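In 112 groups of 4 samples examined (each gene in each group, and the particle means), 5 had 1 sample far from the other 3, where chance gives about 1 in 20 groups. Psmd7 in HSRA-C replicate 2 was at 7.55 against 7.68 to 7.70 in the other controls, and Psmd13, a lid subunit, in HSRA-S replicate 2 was at 7.33 against 7.46 to 7.48. Psme1 in HSRA-C replicate 3 was at 8.90 against 8.77 to 8.80. Psmb9 in HSRA-S replicate 4 was at 6.29 against 6.80 to 6.85. The leukocyte marker mean log2 of that sample was the lowest of HSRA-S, at 6.12. Its summed leukocyte intensity was not, at 2663 within an HSRA-S range of 2597 to 2948. Cd74, which weighs most in that sum, was at log2 10.86 in this sample, its highest in HSRA-S. Nfe2l1 in HSRA-C replicate 2 was at 8.31 against 8.0 to 8.03.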

How the results depend on the processing

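Under all 17 alternatives, 0 proteasome genes passed at an adjusted p under 0.05, and 5 of the 28 genes named by the rule changed sign under at least 1. The count at an unadjusted p under 0.05, 4 as reported, was 9 with array quality weights (7 higher, 2 lower), 2 with the tubule covariate (1 higher and, in Psmd8 at -0.17, 1 lower), 1 (higher) without HSRA-C replicates 3 and 4, and 2 to 6 when 1 sample was left out (6 without HSRA-S replicate 4, 5 higher and 1 lower). With the replicate number as a block it was 1 (higher). Same-numbered samples of the groups deviated with correlations of -0.068, 0.070, 0.13 and -0.11, and 2 of 8 samples correlated best with their own number. The labels give no more than the number, and whether same-numbered samples share a litter or batch was not tested. The median of regulatory particle genes was 0.018 without HSRA-C replicates 3 and 4, and 0.041 to 0.11 with 1 sample left out. That of core genes stood near 0 and its sign turned. It was 0.0077 without the filter on dim genes, and ran from -0.032 to 0.012 with 1 sample left out. Signs turned for Psmc5 (0.0037 with arrays centred, 0.059 with array weights, 0.071 with the covariate), Psme1 (0.017 without HSRA-C replicates 3 and 4, 0.045 with the covariate), Psmd9 (-0.0057) and Akirin2 (0.014), both with the covariate. With 1 sample left out, Psmc5 ran from -0.060 to 0.11, Psme1 from -0.027 to 0.016 and Nfe2l1 from -0.17 to 0.0095. The causes were not tested. Centring arrays moved the median of all genes from 0.015 to 0.021. The alternatives with Adrm1 and Sem1 or without Psmb11 were chosen after seeing the data. Differences of dim genes such as Psmb11 may be understated.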
